A study of Mus musculus with 9 samples.

Results

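Fc gamma receptors bind the constant part of immunoglobulin G (IgG), and the genes described here were the 3 measured receptor genes Fcgr1, Fcgr2b and Fcgr3 together with Fcer1g, the signalling chain that the activating receptors share. They were chosen by name, are 4 of the 757 genes of the table, and all 4 were measured in all 9 samples. RNA came from mouse brain cells sorted on CD45 and CD11b after dead cells stained by 7-AAD had been excluded, a gate that holds microglia, the resident macrophages of the brain. Sham mice (n = 3) had the same surgery without the filament, TIA 24h mice (n = 3) were sampled 24 h after a transient ischemic attack (TIA) made by a brief filament occlusion of the middle cerebral artery, and TIA 3d mice (n = 3) were sampled 3 d after it. The mice profiled on this panel were males per the study, the labels give neither strain nor age, and all brains, Sham included, were placed in actinomycin D, an inhibitor of transcription, before papain dissociation. A condition took its cells from 3 mice, and the labels do not state outright that each sample is 1 mouse. The gate would also admit other myeloid cells, such as monocytes and border macrophages.

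The Fc gamma receptor family sets a balance between activation and inhibition. Fcgr1 encodes the high-affinity IgG receptor and Fcgr3 a low-affinity one. Both signal through the immunoreceptor tyrosine-based activation motif (ITAM) of the chain encoded by Fcer1g, which recruits the kinase Syk. Fcgr2b encodes the inhibitory receptor, whose own tyrosine motif (ITIM) recruits phosphatases such as that encoded by Inpp5d. Microglia express all of them, and they are known for their part in the uptake of IgG-coated material.

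The promoters are shown because the 4 genes moved in the same direction below and because PU.1, the transcription factor on which microglia depend, is known to act at Fc receptor genes. All 4 genes matched the RefSeq promoter table (GRCm38.p6). Fcgr1 lies on chromosome 3 and the others on chromosome 1, all on the minus strand. The sequences below are the 100 bases before each annotated start, 5′ to 3′ along the gene, with capitals on every match to the PU.1 core GAGGAA or its reverse complement TTCCTC. For Fcgr3, which has a pair of annotated starts close together, the window of the one further downstream is given.
Fcgr1, chr3:96293970-96294069: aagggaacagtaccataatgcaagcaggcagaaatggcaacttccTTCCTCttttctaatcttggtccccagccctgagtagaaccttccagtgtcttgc
Fcgr3, chr1:171059395-171059494: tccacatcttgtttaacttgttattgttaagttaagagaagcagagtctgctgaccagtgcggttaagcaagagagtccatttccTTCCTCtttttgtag
Fcer1g, chr1:171234350-171234449: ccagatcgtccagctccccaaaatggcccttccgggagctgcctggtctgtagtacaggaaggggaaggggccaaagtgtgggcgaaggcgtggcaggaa
Fcgr2b, chr1:170976072-170976171: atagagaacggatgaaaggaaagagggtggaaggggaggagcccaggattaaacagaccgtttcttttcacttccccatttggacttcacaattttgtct
The core was present on the opposite strand in both activating receptor genes, 55 bases before the start of Fcgr1 and 15 bases before that start of Fcgr3. Around it the Fcgr1 and Fcgr3 windows shared a run of 14 identical bases, ttccttcctctttt, a comparison made after the sequences had been seen. In the full windows of 300 bases, from 250 before to 50 after the start, the core was not found for Fcer1g or Fcgr2b. It was present in 28.3% of 32851 mouse promoters and in 33.6% of 786 promoters of the panel's genes, so that its presence in a single window is common, and a match is only a description of the letters.

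The lanes differed in depth. Counts recovered from the deposited values totalled 6560 to 25582 per lane in Sham, 7248 to 10929 in TIA 24h and 29200 to 62883 in TIA 3d, and every TIA 3d lane was deeper than every other. An input of about 65 ng RNA per sample is stated, and the measured input of each was not given in the sources used here. The labels give no batch, so that depth and time point cannot be told apart for TIA 3d. Fewer microglia and less RNA per cell cannot be told apart either in such bulk samples. Together the 4 genes took 0.610 to 1.45% of the counts of a lane in Sham, 0.731 to 0.782% in TIA 24h and 1.52 to 1.81% in TIA 3d. As a measure of how far the counts stood above those of genes of other cells, 16 markers of B cells, natural killer and T cells and mast cells were read in the same lanes. Their median lay between 5 and 9.5 counts in every lane, and their highest count, that of Blk or in a single lane of Cd3e, between 17 and 33. All 4 genes exceeded the highest of these markers in Sham replicates 1 and 2 and in the 3 TIA 3d lanes. In Sham replicate 3 and in TIA 24h replicates 2 and 3 none of the 4 did, and in TIA 24h replicate 1 there were 3 that did. The levels in TIA 24h and in Sham replicate 3 therefore rest on counts of the size seen for markers of lymphoid and mast cells.

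Fcgr1, the high-affinity activating receptor, had deposited log2 values of 6.57, 5.17 and 3.97 in Sham replicates 1 to 3, from 99, 33 and 8 counts. In TIA 24h the values were 4.98, 4.06 and 4.73, from 20, 9 and 14 counts. In TIA 3d they were 6.50, 6.53 and 6.42, from 161, 108 and 156 counts. The TIA 3d samples lay close together and above all TIA 24h samples, while Sham spanned both other groups and its replicate 1 was the highest of all 9. The group means were 5.24 ± 1.30 (SD, n = 3) in Sham, 4.59 ± 0.48 in TIA 24h and 6.48 ± 0.06 in TIA 3d.

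Fcgr3, the low-affinity activating receptor, had log2 values of 6.22, 4.93 and 2.97 in Sham, from 78, 28 and 4 counts. In TIA 24h they were 5.30, 4.47 and 3.51, from 25, 12 and 6 counts, and in TIA 3d 7.37, 6.39 and 7.75, from 295, 98 and 392 counts. All TIA 3d samples were above every Sham and every TIA 24h sample, and Sham and TIA 24h overlapped. The means were 4.71 ± 1.64 (SD, n = 3) in Sham, 4.43 ± 0.90 in TIA 24h and 7.17 ± 0.70 in TIA 3d. In Sham replicate 3 the 4 counts of Fcgr3 were below the lane median of 8.

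Fcer1g, the shared activating chain, had log2 values of 6.33, 5.13 and 3.97 in Sham, from 84, 32 and 8 counts. In TIA 24h they were 4.74, 5.13 and 5.01, from 17, 19 and 17 counts, and in TIA 3d 6.64, 6.39 and 7.10, from 178, 98 and 251 counts. Here too the TIA 3d samples stood above all others, although TIA 3d replicate 2 and Sham replicate 1 were nearly level. The means were 5.14 ± 1.18 (SD, n = 3) in Sham, 4.96 ± 0.20 in TIA 24h and 6.71 ± 0.36 in TIA 3d.

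Fcgr2b, the inhibitory receptor, had log2 values of 6.71, 5.41 and 5.30 in Sham, from 109, 39 and 20 counts. In TIA 24h they were 5.18, 5.35 and 4.92, from 23, 22 and 16 counts, and in TIA 3d 6.87, 6.90 and 7.53, from 209, 140 and 338 counts. The TIA 3d samples were again above all others, and Sham overlapped TIA 24h. The means were 5.80 ± 0.78 (SD, n = 3) in Sham, 5.15 ± 0.21 in TIA 24h and 7.10 ± 0.37 in TIA 3d. For all 4 genes the order of the means was TIA 3d, Sham, TIA 24h, and the neighbouring Sham and TIA 24h levels did not differ beyond their spread.

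**Figure D1:**
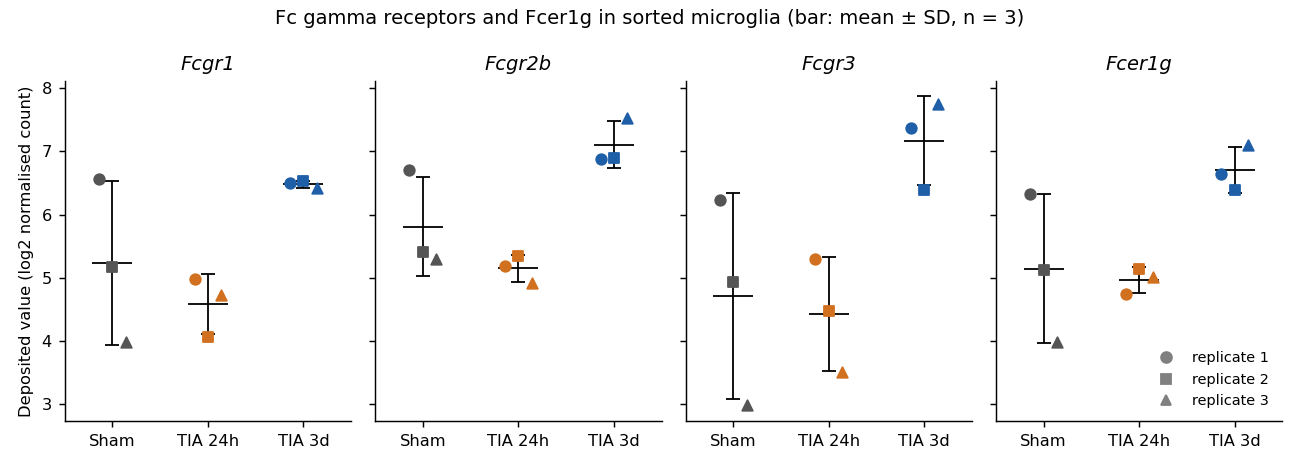
Deposited values (y axis, log2 normalised count) of the 4 genes in Sham, TIA 24h and TIA 3d, with a symbol per replicate and a bar for the mean ± SD (n = 3). The TIA 3d samples lie above all TIA 24h samples for each gene, and the Sham samples spread from 3.97 to 6.57 for Fcgr1.

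All 4 genes rose from TIA 24h to TIA 3d. The log2 difference of Fcgr3 was 2.74 (SE 0.73, adjusted p = 0.0304). Fcgr2b was higher by 1.95 (SE 0.46, adjusted p = 0.0229), Fcgr1 by 1.89 (SE 0.57, adjusted p = 0.0393) and Fcer1g by 1.75 (SE 0.53, adjusted p = 0.0421). The size of each difference is not firm, since the TIA 24h counts lay among those of the lymphoid and mast cell markers. The p values are from limma's moderated contrasts with Benjamini-Hochberg adjustment over 757 genes. In the same contrast 19.2% of all genes were called and 11.6% were called higher. The groups did not overlap for any of the 4, all higher in TIA 3d, against 48.3% of all genes that did not overlap and 22.1% that lay wholly higher, and the median of all genes was -0.25. The 95% intervals of the difference ran from 1.18 to 4.31 for Fcgr3, 0.97 to 2.94 for Fcgr2b, 0.67 to 3.11 for Fcgr1 and 0.60 to 2.90 for Fcer1g, and they overlapped.

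Scaling changed the outcome of this contrast. With counts scaled to the total of the lane, Fcgr3 alone of the 4 was called (1.79, adjusted p = 0.0321, where 4.49% of all genes were called higher), and Fcgr2b (1.01, adjusted p = 0.0727), Fcgr1 (0.95, adjusted p = 0.135) and Fcer1g (0.80, adjusted p = 0.175) were not, in the same limma fit. In counts scaled to the lane total (CPM), Fcgr3 still stood at 3356 to 6234 in TIA 3d against 828 to 2287 in TIA 24h. Fcer1g stood at 3356 to 3992 against 1555 to 2398, Fcgr1 at 2481 to 3699 against 1136 to 1932 and Fcgr2b at 4056 to 5375 against 2104 to 2776, so that none of the 4 overlapped on this scale either, where 10.2% of all genes lay wholly higher in TIA 3d and the median of all genes was -1.19. With the log2 lane total as a covariate, no gene of the table was called and 3 of the 4 changed sign, to -0.38 for Fcgr1, -1.18 for Fcgr3 and -0.47 for Fcer1g, while Fcgr2b was at 0.55. Leaving out replicate 2 or 3 of TIA 24h, or replicate 1 or 3 of TIA 3d, left none of the 4 called, and in each of these settings 0% of all genes were called. Of the 4 genes, 2 were called without Sham replicate 2, where 7.4% of all genes were called higher, 2 without TIA 24h replicate 1 (8.59%) and 2 without TIA 3d replicate 2 (8.06%).

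**Figure D2:**
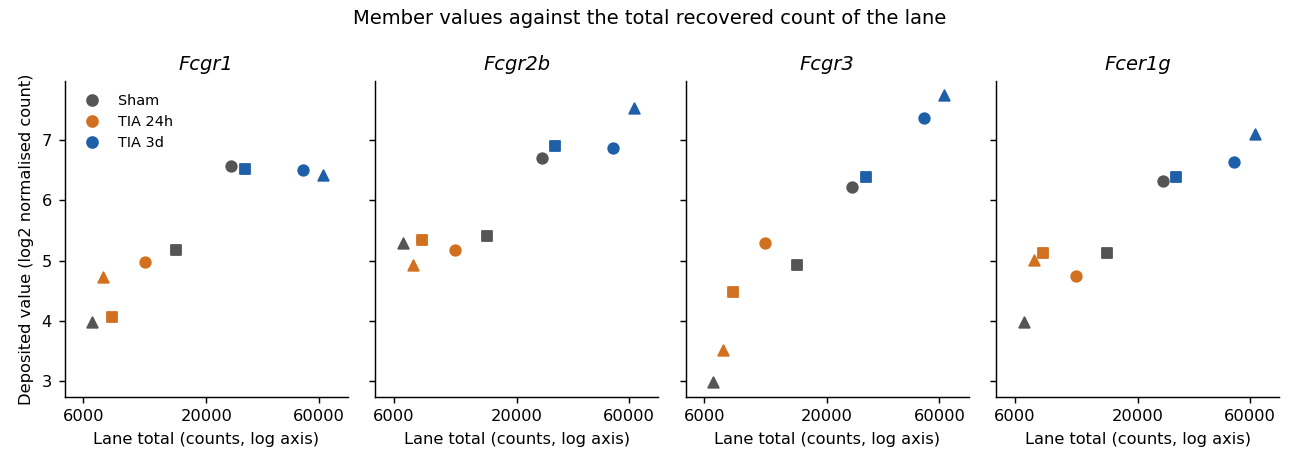
Deposited value of each gene (y axis, log2 normalised count) against the total recovered count of its lane (x axis, log scale), coloured by group. The 3 TIA 3d lanes, with 29200 to 62883 counts, are the deepest, and within Sham the values of each gene are highest in the lane of 25582 counts and lowest in that of 6560.

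**Figure D3:**
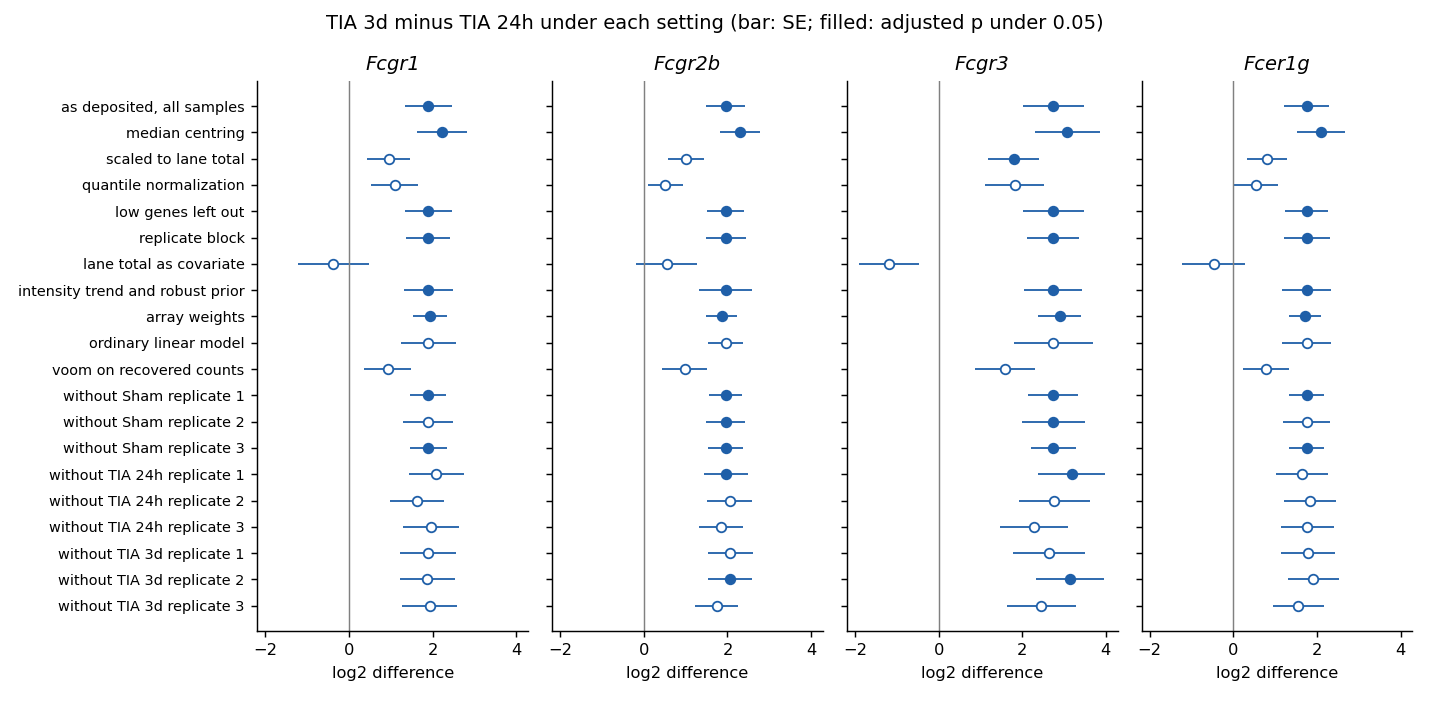
Difference TIA 3d minus TIA 24h of each gene (x axis, log2, bar SE) under each setting (y axis), filled where the adjusted p was under 0.05. The differences are above 0 in all settings except the lane total as a covariate, where Fcgr1, Fcgr3 and Fcer1g lie below 0, and 4 of 4 are filled for the deposited values.

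Against Sham, none of the 4 genes was called in limma at either time point, nor was any other gene of the table (0% called). In TIA 3d all 4 were higher, Fcgr3 by 2.46 (SE 0.73, adjusted p = 0.158), Fcer1g by 1.57 (SE 0.53, adjusted p = 0.16), Fcgr2b by 1.30 (SE 0.46, adjusted p = 0.16) and Fcgr1 by 1.24 (SE 0.57, adjusted p = 0.246). All 4 had an unadjusted p under 0.05, from 0.0048 for Fcgr3 to 0.0464 for Fcgr1, as had 19.6% of all genes, and none was called by an ordinary linear model or by voom on the recovered counts. Fcgr3, Fcer1g and Fcgr2b did not overlap with Sham, against 24.2% of all genes that did not overlap and 15.1% that lay wholly higher, and Fcgr1 overlapped through Sham replicate 1. The direction was not kept in every setting. With the log2 lane total as a covariate Fcgr1 was at -0.40, Fcgr3 at -0.38 and Fcer1g at -0.040, and with quantile normalization Fcgr2b was at -0.0031. Without Sham replicate 1 all 4 genes passed, with differences of 3.21 for Fcgr3, 2.16 for Fcer1g, 1.91 for Fcgr1 and 1.75 for Fcgr2b (adjusted p = 0.00965, 0.0129, 0.0261 and 0.0235 in limma), where 9.64% of all genes were called higher. Without Sham replicate 3, the shallowest lane, none passed and the differences were 1.59 for Fcgr3, 1.04 for Fcgr2b, 0.98 for Fcer1g and 0.61 for Fcgr1 (adjusted p = 0.422, 0.438, 0.438 and 0.643). With counts scaled to the lane total they were 1.70 for Fcgr3, 0.81 for Fcer1g, 0.54 for Fcgr2b and 0.49 for Fcgr1, and none passed. With sample quality weights all 4 passed as well, where 14.4% of all genes were called higher.

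In TIA 24h the differences from Sham were -0.66 for Fcgr2b, -0.65 for Fcgr1, -0.29 for Fcgr3 and -0.18 for Fcer1g, with adjusted p values of 0.742 to 0.957 in limma. The values of all 4 genes overlapped with Sham, and their unadjusted p values were 0.173 to 0.738, while 9.78% of all genes did not overlap, 8.06% wholly higher in TIA 24h. The 95% intervals were wide, from -1.87 to 0.57 for Fcgr1, -1.64 to 0.33 for Fcgr2b, -1.85 to 1.28 for Fcgr3 and -1.33 to 0.97 for Fcer1g, and include changes of more than 1 in size on the log2 scale. The moderated F test over the 3 groups gave adjusted p values of 0.0533 for Fcgr2b, 0.0573 for Fcgr3, 0.086 for Fcer1g and 0.101 for Fcgr1, and 0 of 757 genes passed it, with 235 at an unadjusted p under 0.05. Both contrasts with Sham use the same Sham samples.

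The ratio of an activating to the inhibitory transcript was taken within each sample, where the scaling of the lane cancels. Probes of different genes may count with different efficiency, so that a ratio is compared between samples and not with 1. Fcgr1 to Fcgr2b was 0.908, 0.846 and 0.4 in Sham, 0.870, 0.409 and 0.875 in TIA 24h and 0.770, 0.771 and 0.462 in TIA 3d. Each group thus held a pair of samples between 0.770 and 0.908 and another between 0.4 and 0.462. The low TIA 3d sample, replicate 3, had 156 and 338 counts and an exact 95% binomial interval of 0.379 to 0.560, which lay wholly below the interval of TIA 3d replicate 1 (0.623 to 0.951). Intervals of this kind cover counting error only.

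Fcgr3 to Fcgr2b varied most. It was 0.716, 0.718 and 0.2 in Sham, 1.09, 0.545 and 0.375 in TIA 24h and 1.41, 0.7 and 1.16 in TIA 3d. The mean log2 ratio was 0.07 ± 0.52 (SD, n = 3) in TIA 3d, -0.72 ± 0.78 in TIA 24h and -1.09 ± 1.06 in Sham, so that TIA 3d was higher by 1.16 than Sham (exact permutation p = 0.3) and by 0.79 than TIA 24h (exact permutation p = 0.2). The TIA 3d samples differed from each other beyond counting error, with 1.18 to 1.69 for replicate 1 against 0.535 to 0.913 for replicate 2. The ratio of 0.2 in Sham replicate 3 came from 4 and 20 counts and had an interval of 0.0497 to 0.597.

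For both activating receptors together, Fcgr1 plus Fcgr3 to Fcgr2b, the ratios were 1.62, 1.56 and 0.6 in Sham, 1.96, 0.955 and 1.25 in TIA 24h and 2.18, 1.47 and 1.62 in TIA 3d. Fcer1g to Fcgr2b was 0.771, 0.821 and 0.4 in Sham, 0.739, 0.864 and 1.06 in TIA 24h and 0.852, 0.7 and 0.743 in TIA 3d. Groups overlapped for every ratio. None of the 12 pairwise comparisons, 4 ratios in 3 pairs of groups, passed a two-sided exact permutation test, with p values of 0.2 to 1 and adjusted values of 0.873 or 1, and 3 samples against 3 cannot go below 0.1. Over all 3 groups the exact permutation p was 0.939 for Fcgr1 to Fcgr2b, 0.254 for Fcgr3 to Fcgr2b, 0.518 for both receptors and 0.411 for Fcer1g to Fcgr2b, where 0.00357 is the smallest possible. A shift between activating and inhibitory transcripts was therefore not detectable with these samples, and these p values do not show that the ratios are equal.

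**Figure D4:**
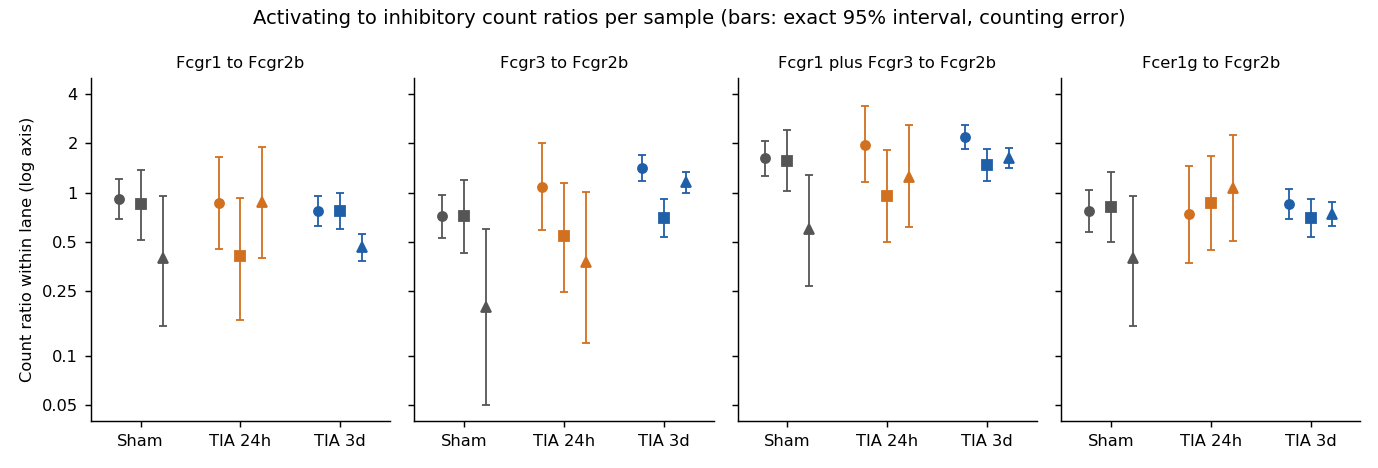
Count ratios of Fcgr1, Fcgr3, their sum and Fcer1g to Fcgr2b within each sample (y axis, log scale), by group, with exact 95% binomial intervals for counting error. All 3 groups overlap in each ratio, the intervals are narrowest in TIA 3d, and Sham replicate 3 is the lowest of its group in all 4, at 0.2 for Fcgr3 to Fcgr2b.

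Genes of a list chosen for microglial identity were also higher in TIA 3d than in TIA 24h. Of 11 such genes 7 were measured, P2ry12, Tmem119, Cx3cr1, Csf1r, Sall1, Gpr34 and Olfml3. All 7 were called higher in TIA 3d than in TIA 24h, where 11.6% of all genes were. Their median difference was 3.03 with a range of 2.01 to 3.95, beside 1.75 to 2.74 for the 4 genes. In TIA 24h against Sham the median difference of the 7 was -1.87 against 0.15 for all genes, with 0 of 7 called in limma. An unadjusted limma p under 0.05 was found for 6 of 7, against 7.53% of all genes. The summed share of the 7 in the lane was 1.75 to 15.1% in Sham, 0.980 to 2.85% in TIA 24h and 5.70 to 11.97% in TIA 3d. Relative to the mean of these 7 genes in the same sample, Fcgr3 stood at -2.59, -2.26 and -1.94 on the log2 scale in Sham, -0.68, -0.98 and -0.50 in TIA 24h and -0.88, -2.12 and -0.03 in TIA 3d. All 3 TIA 24h samples thus lay above all Sham samples, by 1.55 on average (exact permutation p = 0.1, the smallest possible, adjusted p = 0.4 over 12 comparisons). On this scale 11.9% of all genes lay wholly higher in TIA 24h and the median of all genes was higher by 1.98, so that the difference of Fcgr3 was below that of the median gene. In TIA 24h that Fcgr3 value rests on 6 to 25 counts. The reference was low as well, since in TIA 24h replicate 3 (2 to 20 counts) and Sham replicate 3 (10 to 29 counts) none of the 7 identity genes exceeded the highest lymphoid or mast cell marker, and in TIA 24h replicate 2 there were 2 that did. Relative values in these lanes set low counts against low counts.

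The other members differed by 1.18 for Fcgr1, 1.17 for Fcgr2b and 1.65 for Fcer1g, with overlapping groups (exact permutation p = 0.3, 0.3 and 0.2), each also below the median gene. With 8 general macrophage genes as the reference these differences were 0.13 for Fcgr1, 0.12 for Fcgr2b, 0.59 for Fcer1g and 0.49 for Fcgr3 (exact permutation p = 0.8, 0.9, 0.3 and 0.3). From TIA 24h to TIA 3d the relative values differed by -1.14 for Fcgr1, -1.08 for Fcgr2b, -1.29 for Fcer1g and -0.29 for Fcgr3 (exact permutation p = 0.2, 0.2, 0.2 and 0.8). None passed after adjustment. The median gene differed by -3.28 on this scale, and for Fcgr3 the sign turned to 0.08 with the general macrophage genes as the reference. With the low counts of TIA 24h, these values do not settle how the 4 genes changed relative to the identity genes.

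Around the receptors, the wider pathway held rises in TIA 3d against TIA 24h and no fall that passed the test. Of 4 measured Fc receptor relatives 2 were called higher, where 11.6% of all genes were. Tyrobp, an ITAM adaptor like Fcer1g, rose by 3.12 (adjusted p = 0.0229), from 20, 13 and 16 counts to 420, 235 and 582. Fcrls, an Fc receptor-like gene used as a microglial marker, rose by 2.54 (adjusted p = 0.0373). In TIA 24h, 11 of the 15 pathway genes called higher here and in the next paragraphs did not exceed the highest lymphoid or mast cell marker in any lane (2 to 55 counts over all 15), and none exceeded it in all 3 lanes, whereas in TIA 3d all 15 did in every lane (36 to 997 counts). The sizes of their differences are therefore not firm either. The B cell relatives Fcrla and Fcrlb, at 2 to 17 counts in all lanes, were not called. All adjusted p values of this and the following paragraph are from the same limma contrast.

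Among kinases and adaptors that act downstream of the ITAM, 5 of 20 were called higher and 0 lower, against 11.6% and 7.53% of all genes. The median difference of these 20 was 0.98 against -0.25 for all genes. Pik3r1 and Pik3cg, subunits of phosphoinositide 3-kinase, rose by 2.36 (adjusted p = 0.0229) and 2.03 (adjusted p = 0.0304). Lyn, the Src-family kinase that phosphorylates both ITAM and ITIM, rose by 2.11 (adjusted p = 0.0474), and Plcg2, a phospholipase, by 1.98 (adjusted p = 0.0373). Syk, which binds the phosphorylated ITAM, was higher by 0.96 and was not called (adjusted p = 0.121). Its counts went from 18, 13 and 12 to 87, 49 and 101. In CPM, Syk stood at 1648 ± 7.55 (SD, n = 3) in TIA 24h and 1657 ± 44.7 in TIA 3d. The TIA 24h value rests on 12 to 18 counts, which exceeded the highest lymphoid or mast cell marker in no lane. Its SD is therefore no measure of counting error, and an unchanged share of Syk is not shown.

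On the inhibitory side 4 of 9 genes were called higher and 0 lower, against 11.6% and 7.53% of all genes. The median of these 9 was 1.09. The phosphatase genes Inpp5d (SHIP-1) and Ptpn6 (SHP-1), whose products bind ITIMs, rose by 2.21 (adjusted p = 0.0385) and 1.99 (adjusted p = 0.0421), and the inhibitory receptors Lair1 and Cd33 by 1.88 (adjusted p = 0.0334) and 1.87 (adjusted p = 0.0229). Among regulators of Fc receptor expression 4 of 7 were called higher, against the same 11.6% of all genes, with a median of 1.51. Tgfbr1 rose by 2.79 (adjusted p = 0.0254) and Tgfb1 by 2.48 (adjusted p = 0.0304), a receptor and ligand of the transforming growth factor pathway on which microglia depend. The interferon-linked transcription factors Irf8 and Irf1 rose by 1.85 (adjusted p = 0.0229) and 1.51 (adjusted p = 0.0351). Against Sham, none of the genes of these 4 lists was called in TIA 24h or TIA 3d. An unadjusted p under 0.05 was seen for 1 of 4 relatives, 6 of 20 kinases and adaptors, 1 of 9 inhibitory genes and 4 of 7 regulators in TIA 3d, where 19.6% of all genes had one, and for 0, 0, 2 and 1 in TIA 24h, where 7.53% had one.

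**Figure D5:**
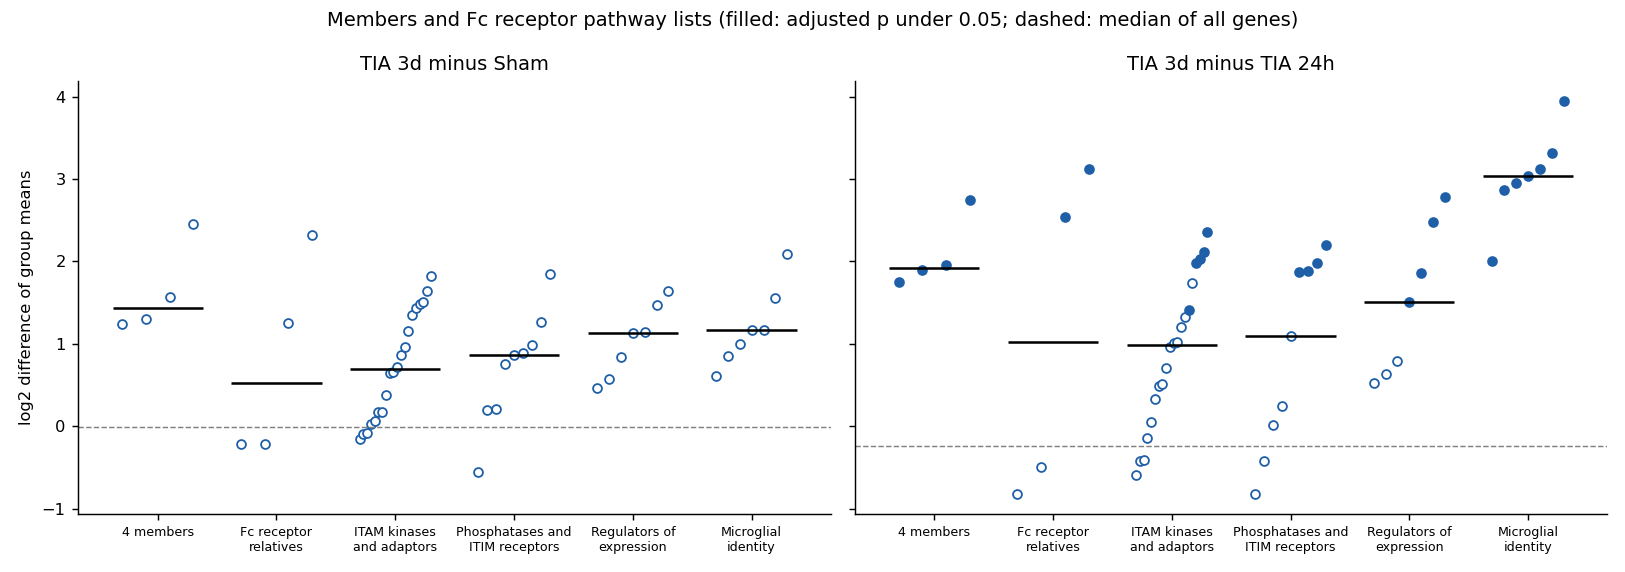
Difference of group means (y axis, log2) of the 4 genes, of 4 pathway lists and of 7 microglial identity genes, TIA 3d minus Sham on the left and TIA 3d minus TIA 24h on the right. Each point is a gene, filled where its adjusted p was under 0.05, bars are list medians and the dashed line is the median of all genes. Against TIA 24h all 4 members and all 7 identity genes are filled, and against Sham none is.

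The genes whose deposited values were most like each member over the 9 samples differed from member to member. For Fcgr1 they were Ccng2 (Pearson r = 0.975), Tyrobp (0.974) and Rps9 (0.969), and for Fcgr2b Man2b1 (0.976), Trem2 (0.961) and C1qc (0.959). For Fcgr3 they were C1qb (0.984), Grn (0.982) and Syk (0.975), and for Fcer1g Inpp5d (0.988), Cd86 (0.980) and Atf3 (0.980). The members correlated with each other at 0.886 to 0.933, or at 0.631 to 0.801 with counts scaled to the lane total, and none was among the 3 nearest of another. All 9 points share the depth gradient described above, and these values carry no test. After median centring of each sample the nearest genes were Ccng2, Tyrobp and Rps9 again for Fcgr1, Man2b1, Blnk and Casp4 for Fcgr2b, C1qb, Grn and Lyn for Fcgr3, and Inpp5d, Cd86 and P2rx7 for Fcer1g.

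Several of the 4 genes are also expressed by other cells, Fcgr2b by B cells, Fcgr3 and Fcer1g by natural killer cells, Fcer1g by mast cells and all 4 by monocytes and border macrophages. Of 16 markers of B cells (3 genes, among them Ms4a1 and Blk), natural killer and T cells (9 genes, among them Klrk1, Ncr1 and Nkg7) and mast cells (4 genes, among them Kit, Cpa3 and Tpsb2), 0 had a higher deposited value in TIA 3d than in TIA 24h, with a median difference of -1.03 and 4 called lower, where 7.53% of all genes were. Their summed raw counts did not fall, at 109 to 132 per lane in TIA 24h and 150 to 172 in TIA 3d. A count was multiplied by 1.58 to 1.89 in the TIA 24h lanes and by 0.55 to 0.85 in the TIA 3d lanes to give the deposited value, so that a gene with level counts has a negative difference. None of the 16 was at a count of 0 in any lane, the lowest recovered count being 1. The monocyte marker Ccr2, with 15, 10 and 5 counts in Sham, 10, 11 and 14 in TIA 24h and 12, 19 and 9 in TIA 3d, was not called, nor was Cd163, the 1 measured border macrophage marker of 7, at 11 to 33 counts. The neutrophil markers Ly6g and Csf3r had differences of opposite sign and were not called.

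Some markers of other brain cells were called lower in TIA 3d than in TIA 24h on the deposited scale, against 7.53% of all genes. Of 7 oligodendrocyte genes, among them Mobp and Mog, 3 were called lower in TIA 3d. Of 6 endothelial genes (Cldn5, Pecam1, Tie1, Emcn, Flt1 and Esam) 2 were called lower, while their summed raw counts were 46 to 70 per lane in TIA 24h and 59 to 70 in TIA 3d and so did not fall with the deeper lanes. Of 4 astrocyte genes (first Slc1a3, Aldh1l1 and S100b) 1 was called lower, and of 3 neuronal genes (Rbfox3, Gria1 and Tubb3) 0. The part of these markers, and of depth, in the difference of the Fc receptor genes was not tested.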

How the data were processed

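Sorted mouse microglia from 3 groups of 3 samples were profiled on an nCounter neuroinflammation panel, which counts barcoded probes without amplification. The authors deposited log2 values of counts that they had normalised in ROSALIND to housekeeping probes chosen by geNorm. The table holds 757 genes, and no column was left unused. On the linear scale the values of a lane were multiples of one lane factor, to within 0.01 counts, which gave back whole counts. The lane factors spanned 3.58-fold. Precision follows the lane totals (6560 to 62883). Groups came from the sample titles.

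All genes and samples were fitted together with a mean per group by lmFit and eBayes (limma 3.58.1 under R 4.3.3), with two-sided contrasts, Benjamini-Hochberg adjustment over 757 genes and an adjusted p of 0.05 as threshold ("called"). "Did not overlap" means that all 3 values of one group lay above all 3 of the other. Ratios and values relative to microglial identity genes were tested over samples by exact permutation, two-sided (scipy 1.17.1). The script was tested on simulated data. p values measure only the spread between samples, part of which may be technical.

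The members, gene lists and tests were chosen with earlier results of these data known. Of each pathway list the text names the called genes with the largest differences, up to 4 per direction, with Tyrobp, Syk, Inpp5d and Ptpn6 named whatever their values, the first 3 measured markers of each cell type (a few of which are not reported here), and the 3 genes with the highest Pearson r for each member. Promoters are from RefSeq (GRCm38.p6). A later time point of the study was not analysed here. Alternatives are listed in the closing section.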

Additional observations from a re-analysis of the deposited data

Results flagged for a closer look

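The change from Sham differed between the time points for all 4 genes, which is the contrast TIA 3d against TIA 24h, since the Sham mean cancels in it. The difference was 2.74 for Fcgr3, 1.95 for Fcgr2b, 1.89 for Fcgr1 and 1.75 for Fcer1g on the log2 scale, higher in 3 of 3 samples in TIA 3d for each gene and past the threshold in limma (adjusted p = 0.0304, 0.0229, 0.0393 and 0.0421). The lane totals were higher in TIA 3d in 3 of 3 samples as well, and their part in the difference was not tested apart from the settings given next. With scaling to the lane total Fcgr3 alone passed. With the log2 lane total as a covariate no gene of the table passed. There Fcgr1, Fcgr3 and Fcer1g were at -0.38, -1.18 and -0.47, and Fcgr2b at 0.55. The moderated F test over the groups called none of the 4 (adjusted p = 0.0533 to 0.101), nor any other gene of the table. Leaving out replicate 2 or 3 of TIA 24h, or replicate 1 or 3 of TIA 3d, left none of the 4 past the threshold, as it did all 757 genes of the table.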

How the results depend on the processing

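The 4 genes were higher in TIA 3d than in TIA 24h in all settings tried except with the lane total as a covariate, where Fcgr1, Fcgr3 and Fcer1g were at -0.38, -1.18 and -0.47. The number called in that contrast was 1 with counts scaled to the lane total and 0 with quantile normalization, the lane total as a covariate, an ordinary linear model or voom on the recovered counts (7, 0, 0 and 385 of 757 genes called in all), and 0 to 4 when samples were left out in turn (0 to 226 in all). For TIA 3d against Sham it was 4 with array weights (174 genes in all) and 0 to 4 when samples were left out (0 to 84). There the lane total as a covariate gave -0.40 for Fcgr1, -0.38 for Fcgr3 and -0.040 for Fcer1g, and quantile normalization -0.0031 for Fcgr2b. In the F test it was 2 with median centring (52 of 757 genes called in all), 1 with low genes left out (40 of 568), with an intensity trend and robust prior (50) or with the replicate block (54), 4 with array weights (295) and 0 to 4 when samples were left out (0 to 136). For TIA 24h against Sham, where none was called, the sign turned with samples left out, over -1.28 to 0.015 for Fcgr1, -1.15 to 0.47 for Fcgr3 and -0.77 to 0.41 for Fcer1g, with their highest values without Sham replicate 1. It also turned with the lane total as a covariate for Fcgr3 (0.80) and Fcer1g (0.43), and for Fcer1g with scaling to the lane total (0.0081) or quantile normalization (0.30).

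Ratios that did not pass also turned. Fcgr1 to Fcgr2b was -0.24 in TIA 24h against Sham with counts summed over the group, and with quantile normalization 0.62 in TIA 3d against Sham and 0.58 against TIA 24h. Left-out samples gave -0.37 to 0.37, -0.43 to 0.19 and -0.42 to 0.19 for its contrasts TIA 24h against Sham, TIA 3d against Sham and TIA 3d against TIA 24h. In TIA 24h against Sham they gave -0.24 to 0.72 for Fcgr3 to Fcgr2b and -0.26 to 0.45 for both receptors, which stood at -0.078 with summed counts. Fcer1g to Fcgr2b ran from -0.061 to 0.46 in TIA 3d against Sham and was 0.035 against TIA 24h with quantile normalization. Relative to identity genes, in TIA 3d against Sham Fcgr1 was at -0.0063 with the median of the list, -0.64 with the general list and -0.22 to 0.44 with samples left out. There Fcgr2b was at -0.59 with the general list, -0.090 with quantile normalization and -0.37 to 0.87 with samples left out, and Fcer1g at -0.32 and at -0.036 to 0.81. Fcgr3 in TIA 3d against TIA 24h was at 0.080 with the general list, 0.46 with quantile normalization and -0.78 to 0.26 with samples left out. The causes were not tested. The median of all genes in TIA 3d against TIA 24h was -0.25 as deposited, -1.19 with counts scaled to the lane total and 0.09 with median centring, and the split of calls was 88 higher and 57 lower, 34 and 310, and 123 and 21.

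The correlations of deviations of same-numbered samples ran from -0.24 to 0.27 and gave no sign of pairing by replicate number. They cannot exclude a batch shared by such samples, of which the labels say nothing. With the replicate block 4 of 4 genes were called in TIA 3d against TIA 24h (140 of 757 genes in all, 89 higher) and 1 in the F test, Fcgr3. In TIA 24h and in Sham replicate 3, where members had 4 to 25 counts, counting error limits every value.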
